A study of Danio rerio with 9 samples.

Results

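RNA-seq was performed on fresh cardiac ventricles of adult zebrafish, and the genes described here are those of glycine cleavage and serine synthesis. The list held 10 names and was chosen by measured values of these same libraries, in which *gldc* was already known to differ between the genotypes. Of these, 9 had a row among the 16575 genes of the count table. A match by gene symbol gave 8 rows. The row of *dldh* was matched by its identifier, because the name table lists it under its human symbol, and *phgdh* had no row and was not analysed here.

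The mutant ventricles, vegfc(hy-/-);vegfd(-/-), were homozygous for a hypomorphic allele of *vegfc*, a growth factor gene for lymphatic vessels, and for a null allele of its relative *vegfd*. The control ventricles were wild type at both genes, vegfc(+/+):vegfd(+/+). There were 4 mutant libraries, numbered 6 to 9, and 5 control libraries, numbered 1 to 5, from uninjured adult fish of a single age by the study's account. The genotypes are described as different zebrafish lines, so genotype and line background cannot be told apart, and the labels do not say whether each library came from a separate fish.

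The glycine cleavage system is an enzyme complex of the mitochondrion that breaks glycine down to carbon dioxide and ammonia and passes the remaining carbon to tetrahydrofolate. It works through 4 proteins, called P, T, H and L, and in vertebrates it is best known from liver, kidney and brain. Serine hydroxymethyltransferases interconvert serine and glycine with the same folate carrier, and the phosphorylated pathway, which ends with Psat1 and Psph, makes serine from an intermediate of glycolysis.

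Library totals were 27320575 to 33496006 counts in mutants and 23302636 to 33407859 in controls. Expression is given as CPM, a gene's counts scaled to the same library total, after scaling the totals by trimmed mean of M values (TMM). Among all genes, 553 (3.34%) passed an adjusted p of 0.05 in edgeR's quasi-likelihood test, 353 (2.13%) of them higher and 200 (1.21%) lower in mutants. The genotypes did not overlap for 1746 genes (10.5%), of which 1006 (6.07%) were higher and 740 (4.46%) lower in every mutant. Of the targeted genes, *vegfd* was at 0.350, 0.345, 0.648 and 0.127 CPM in mutants and between 1.55 and 4.76 CPM in controls, with no overlap (log2 fold change -2.82 ± 0.51 (SE), edgeR adjusted p = 0.0195). Without mutant 6 or mutant 7 this call was lost, with an adjusted p of up to 0.0611. *vegfc* was at 3.80 ± 1.86 CPM in mutants (SD, n = 4) and 2.99 ± 1.71 CPM in controls (SD, n = 5), a log2 difference of 0.35 ± 0.46 (SE, edgeR adjusted p = 0.719). The *vegfc* transcript level therefore does not check the labels, and that of *vegfd* goes with them.

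Of the 9 measured genes, 1 was called higher (*gldc*), 0 were called lower and 8 were not called in the fit over all genes. Since the contrast that makes these calls is also the one behind the choice of the genes, the counts are descriptive and are not read against the 3.34% of all genes. At an unadjusted p under 0.05, 2 genes were higher and 0 lower, where 1830 and 1636 of all 16575 genes were. The likelihood ratio test in edgeR and DESeq2 each called 2 higher and 0 lower, and limma-voom called 1 higher and 0 lower. Over all genes, the likelihood ratio test called 817 higher and 540 lower, DESeq2 929 and 737, and limma-voom 452 and 204. The median log2 fold change of the 9 genes was 0.18, beside -0.01 for all genes, and without *gldc* the other 8 ran between -0.59 and 1.03 with a median of 0.13.

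**Figure D1:**
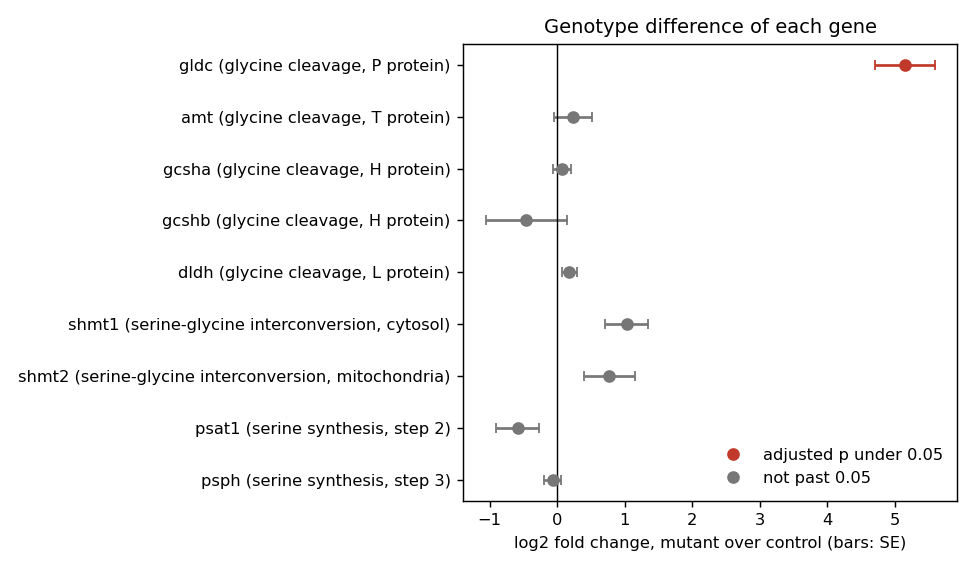
Log2 fold change of the 9 measured genes, mutant over control, with bars of 1 SE, ordered by the step each encodes. *gldc* stands at 5.15, while the other 8 genes lie between -0.59 and 1.03.

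*gldc* (ENSDARG00000035120) encodes the P protein, the decarboxylase that takes the carboxyl group off glycine and starts the cleavage reaction. It was at 16.8, 21.7, 22.9 and 51.6 CPM in mutants 6 to 9, against 1.14, 0.366, 0.764, 0.440 and 1.18 CPM in controls 1 to 5. All mutant libraries were high and all control libraries low, with no overlap. It was the only gene of the 9 without overlap, where 6.07% of all genes were higher and 4.46% lower in every mutant. The raw data behind these levels were 479 to 1623 counts per mutant library and 8 to 40 counts per control library.

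Mean *gldc* expression was 28.2 ± 15.8 CPM in mutants (SD, n = 4) and 0.780 ± 0.382 CPM in controls (SD, n = 5), a ratio of 36.2. The mutant library with the least *gldc* still held 14.2 times the level of the control library with the most. On the log2 scale the difference was 5.15 ± 0.45 (SE). Leaving out each library in turn gave values between 4.69 and 5.35, and the other scalings, tests and filters gave values between 5.04 and 5.16. *gldc* was called under each of these settings.

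The size of the *gldc* signal was uneven within each genotype. Mutant 9 held 51.6 CPM, while the other 3 mutants lay between 16.8 and 22.9 CPM. The SD was 56.0% of the mean in mutants, where counting error alone gives 3.42%, and 49.0% of the mean in controls, where counting error alone gives 19.9%. Because these are bulk ventricles, more cells that express *gldc* and more *gldc* RNA per cell cannot be told apart.

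**Figure D2:**
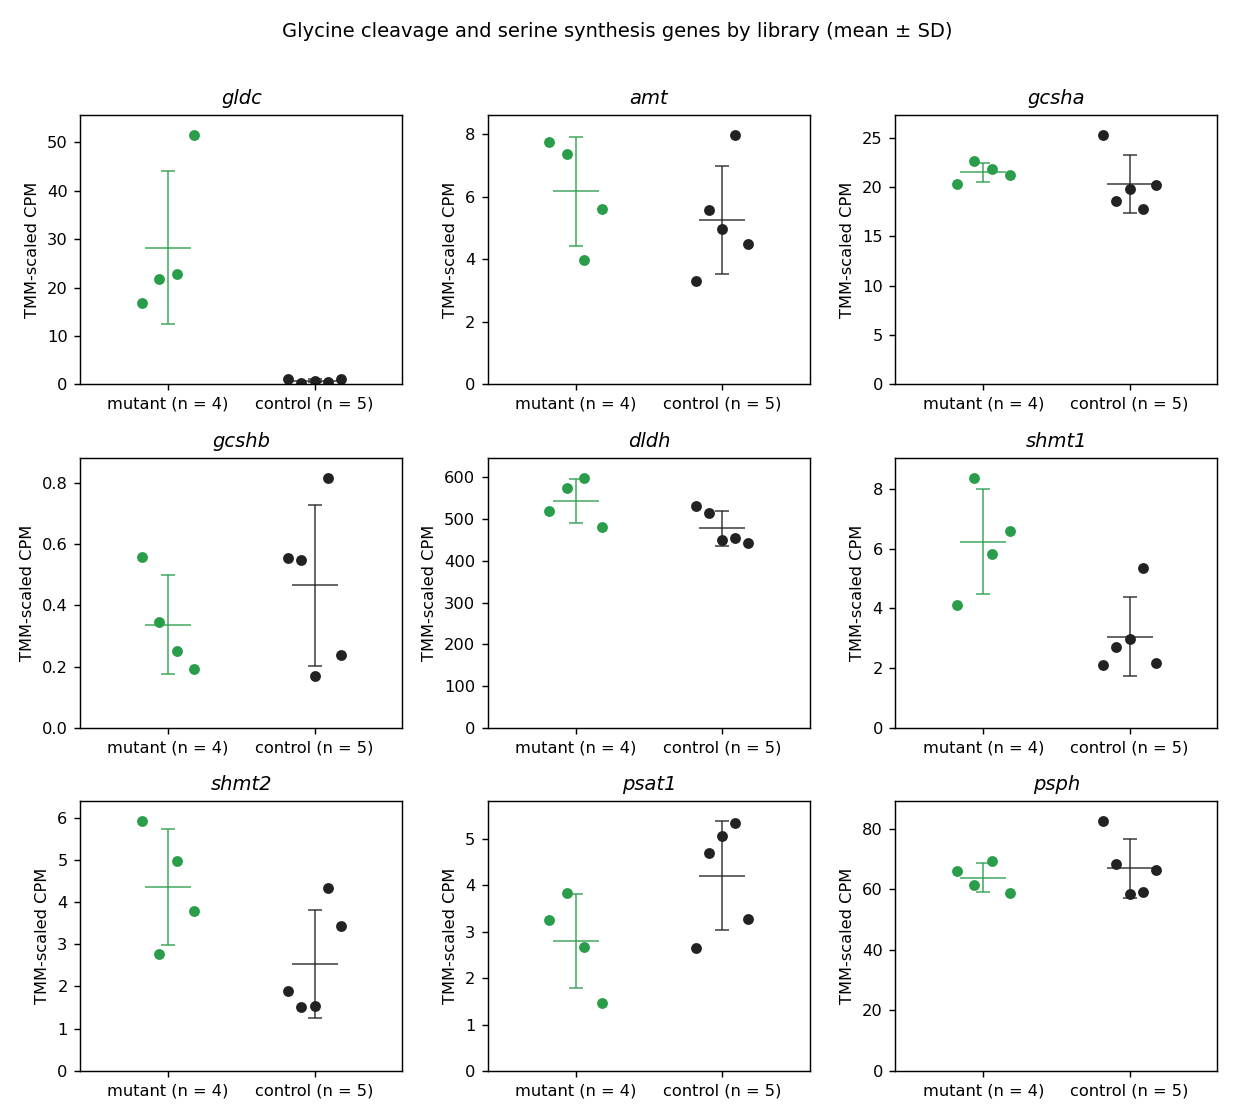
TMM-scaled CPM of each gene by library, with mutants (n = 4) in green on the left and controls (n = 5) in black on the right. Points are libraries, horizontal lines are means and bars are SDs, and each axis starts at 0 on its own scale. Of the 9 panels, the genotypes are apart in that of *gldc* only, and in the other 8 panels they overlap.

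The other proteins of the cleavage complex were not called in either direction. *amt* (ENSDARG00000010862) encodes the T protein, the aminomethyltransferase that hands the carbon of glycine to tetrahydrofolate. Its levels were 7.74, 7.38, 3.96 and 5.60 CPM in mutants 6 to 9, against 3.31, 5.58, 4.95, 7.99 and 4.47 CPM in controls 1 to 5. The highest library of all was control 4, and the groups overlapped over most of their range. Means were 6.17 ± 1.74 CPM in mutants and 5.26 ± 1.74 CPM in controls (SD, n = 4 and 5). This is a log2 fold change of 0.23 ± 0.28 (SE).

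The H protein carries the intermediates between the other subunits on a lipoyl arm, and 2 zebrafish genes for it were in the table. *gcsha* (ENSDARG00000091655) was at 20.3, 22.6, 21.8 and 21.2 CPM in mutants 6 to 9, against 25.3, 18.6, 19.8, 17.8 and 20.2 CPM in controls 1 to 5. The mutant libraries sat close together, inside the wider range of the controls. For *gcsha* the log2 fold change was 0.08 ± 0.13 (SE). The SD between mutants, at 4.53% of the mean, was near the 3.94% that counting error alone gives, whereas controls varied by 14.5%.

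The other H protein gene, *gcshb* (ENSDARG00000105187), was at 0.560, 0.345, 0.252 and 0.191 CPM in mutants 6 to 9, against 0.556, 0.549, 0.170, 0.818 and 0.237 CPM in controls 1 to 5. The groups overlapped, and with 6 to 16 counts per mutant library and 6 to 26 per control library the depth limits what could be seen. The log2 fold change was -0.46 ± 0.60 (SE), and counting error alone gives an SD of 31.6% of the mean in mutants and 26.7% in controls.

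*dldh* (ENSDARG00000008785) encodes the L protein, dihydrolipoamide dehydrogenase, a subunit that the cleavage system shares with the pyruvate, 2-oxoglutarate and branched-chain keto acid dehydrogenases. It was at 520.1, 573.5, 599.0 and 480.5 CPM in mutants 6 to 9, against 532.2, 515.8, 449.4, 453.8 and 441.9 CPM in controls 1 to 5. Mutants 7 and 8 lay above every control, and mutants 6 and 9 lay inside the control range. Means were 543.3 ± 53.2 CPM in mutants and 478.6 ± 42.0 CPM in controls (SD, n = 4 and 5), and the log2 fold change was 0.18 ± 0.11 (SE).

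Both serine hydroxymethyltransferase genes had higher means in mutants, and neither passed the adjusted threshold. *shmt1* (ENSDARG00000052816), the cytosolic enzyme, was at 4.13, 8.39, 5.83 and 6.61 CPM in mutants 6 to 9, against 2.10, 2.70, 2.97, 5.35 and 2.16 CPM in controls 1 to 5. Mutants 7, 8 and 9 lay above every control, and mutant 6 lay below control 4, the control that stood apart from the other 4. Means were 6.24 ± 1.77 CPM in mutants and 3.06 ± 1.33 CPM in controls (SD, n = 4 and 5), a ratio of 2.04.

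The log2 fold change of *shmt1* was 1.03 ± 0.32 (SE), the largest after *gldc* among the 9 genes. This was the gene whose call depended on the setting. It was called by the likelihood ratio test, by DESeq2 and in the quasi-likelihood fit without control 4, where the log2 fold change was 1.33. Over all libraries left out in turn the value ran between 0.85 and 1.33.

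*shmt2* (ENSDARG00000104414), the mitochondrial enzyme, was at 5.92, 2.76, 4.97 and 3.78 CPM in mutants 6 to 9, against 1.89, 1.51, 1.53, 4.34 and 3.44 CPM in controls 1 to 5. Mutants 6 and 8 lay above every control, while mutants 7 and 9 lay inside the control range. Means were 4.36 ± 1.38 CPM in mutants and 2.54 ± 1.28 CPM in controls (SD, n = 4 and 5). The log2 fold change was 0.77 ± 0.37 (SE). Leaving out each library in turn gave 0.59 to 1.05.

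The serine synthesis genes in the table had negative log2 fold changes and were not called. *psat1* (ENSDARG00000016733), the aminotransferase of the pathway's middle step, was at 3.26, 3.83, 2.67 and 1.46 CPM in mutants 6 to 9, against 2.66, 4.71, 5.06, 5.35 and 3.29 CPM in controls 1 to 5. Controls 2, 3 and 4 lay above every mutant and mutant 9 lay below every control, with overlap between. Means were 2.80 ± 1.01 CPM in mutants and 4.21 ± 1.18 CPM in controls (SD, n = 4 and 5), and the log2 fold change was -0.59 ± 0.32 (SE), between -0.78 and -0.37 with each library left out in turn.

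*psph* (ENSDARG00000040314), the phosphatase of the last step, was at 66.0, 61.5, 69.3 and 58.6 CPM in mutants 6 to 9, against 82.5, 68.2, 58.4, 59.1 and 66.3 CPM in controls 1 to 5. Every mutant lay inside the control range. The log2 fold change was -0.07 ± 0.13 (SE) and turned positive, at 0.020, without control 1. No value can be given for *phgdh*, the dehydrogenase that starts the pathway.

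The spread between libraries of a genotype differed among the 9 genes. *dldh*, *psph* and *gcsha* had SDs of 4.53% to 14.5% of the mean in either genotype, whereas the other 6 genes had SDs of 27.9% to 56.7%, the highest for *gcshb* in controls. In both genotypes the SD of each of the 9 genes was above its counting error. The gene with the widest fold range in mutants was *gldc*, whose highest mutant held 3.08 times its lowest.

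**Figure D3:**
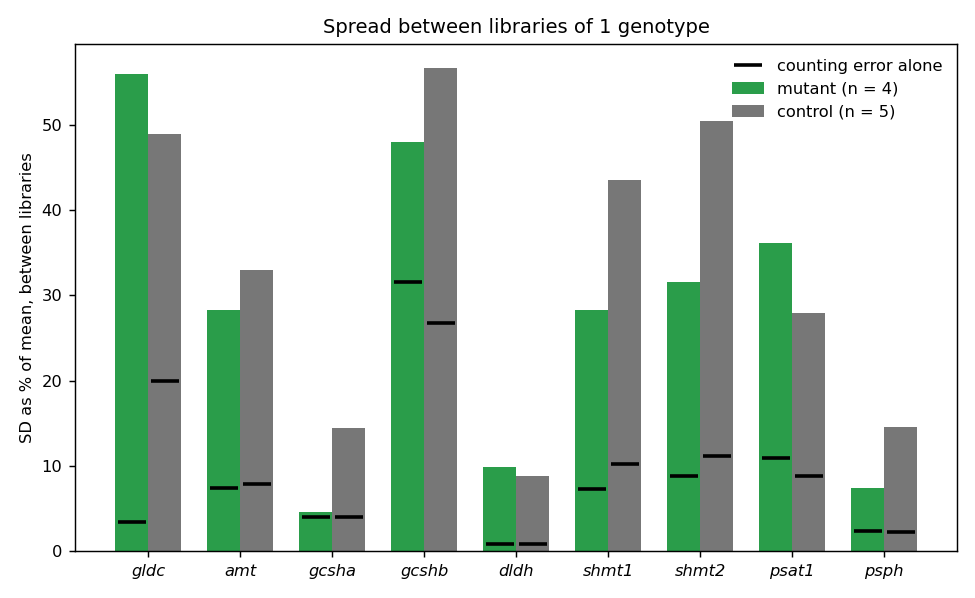
SD between libraries of a genotype as a percentage of the mean, for mutants (green, left bar) and controls (grey, right bar), with the SD that counting error alone gives as a black line. *gldc* varied by 56.0% among mutants, and *gcsha* by 4.53%, near its counting error of 3.94%.

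Single libraries did not hold high or low levels of the whole set. Mutant 9 had the highest *gldc* of the mutants and the lowest *gcshb*, *dldh*, *psat1* and *psph*. Control 4 had the highest control level of 5 genes (*amt*, *gcshb*, *shmt1*, *shmt2* and *psat1*) and the lowest *gcsha*. Control 1 was highest for *gcsha*, *dldh* and *psph* and lowest for *amt*, *shmt1* and *psat1*.

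The same was seen in the deviations of each library from its genotype mean, on the scale of log2(CPM + 1). Across the 36 pairs of the 9 genes, Pearson's r of these deviations over 9 libraries ran between -0.85 and 0.73, and 17 pairs were positive. The lowest was that of *gldc* with *psat1*, which was -0.76 without mutant 9 and -0.77 without mutants 8 and 9, and the highest was that of *dldh* with *psph*. These values are descriptions over 9 libraries that share their total counts with every gene.

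Among 13873 genes with a mean of at least 1 CPM, those whose level followed *gldc* most closely over the 9 libraries were a gene with no symbol (ENSDARG00000116666, r = 0.989), *acbd4* (0.980), *pgpep1l* (0.979), *si:dkey-19a16.7* (0.977) and a gene with a clone name (ENSDARG00000101254, 0.974). All 5 were called higher in mutants, so their likeness includes the genotype difference itself. In the deviations from genotype means, the nearest were *atp6v1e1b* (0.962), *kpna2* (0.948), *zgc:154164* (0.941), *afg1lb* (0.931) and *acp2* (0.926), and 0 of these 5 were called. They are the highest of 13873 values over 9 libraries. Mutant 9 held far more *gldc* than the other mutants, and how far these values rest on that library was not tested. Of each group of 5, 2 stayed among the nearest 5 when a pseudocount of 0.25 replaced 1. Of the other 8 glycine and serine genes, *gcshb* averaged under 1 CPM and was not ranked, and none of the rest was in either group.

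The row next to *gldc* in the table was *coq2* (ENSDARG00000059510), which encodes a prenyltransferase of ubiquinone synthesis, and it was singled out after its values were seen. It was at 17.3, 13.1, 14.2 and 12.5 CPM in mutants 6 to 9, against 6.83, 6.90, 4.92, 7.04 and 4.21 CPM in controls 1 to 5, with no overlap. For *coq2* the log2 fold change was 1.26 ± 0.19 (SE, edgeR adjusted p = 0.0102), and *coq2* was called under every setting at the 0.05 threshold, including each library left out. In the GRCz12tu annotation, a later assembly than that of the counts, the spans of *gldc* and *coq2* overlap. Counting was by strand according to the study, and whether reads of either gene were assigned to the other was not tested.

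Of the 10 rows within 5 of *gldc*, *coq2* was the only one called, where 3.34% of all genes were, and the 10 log2 fold changes ran between -0.33 and 1.39. The row on the other side of *gldc*, *zgc:114041*, was at 1.39 ± 0.48 (SE), and *kntc1* was at 1.26 ± 0.47 (SE). Negative values were those of *mfsd10* (-0.33 ± 0.36 (SE)) and *malt1* (-0.16 ± 0.40 (SE)). The symbols of 6 of the 10 rows were in the GRCz12tu table, all 6 on the chromosome of *gldc*, and the other 4 were placed by row order alone. Of the 8 genes matched by symbol, 0 lay on the chromosome of *vegfc* or of *vegfd* in GRCz12tu. Of these, 1 gene other than *gldc*, *psat1*, shared the chromosome of *gldc*.

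**Figure D4:**
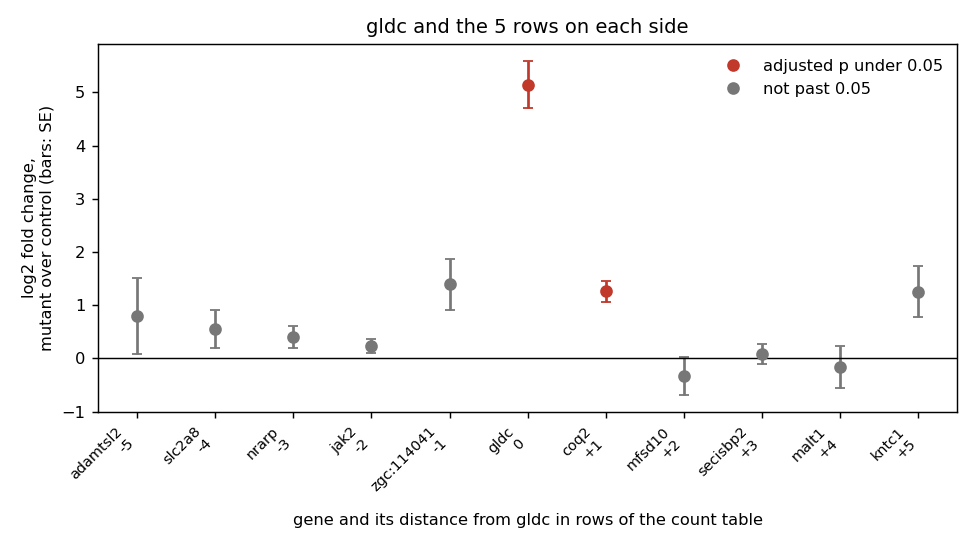
Log2 fold change, mutant over control, of *gldc* and the 5 rows on each side of it in the count table, with bars of 1 SE and called genes in red. *gldc* stands at 5.15 and *coq2* at 1.26, and the other 9 rows were not called.

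Genes that surround the glycine and serine reactions were followed in 5 lists, of which 123 identifiers were in the table for 148 names. Of these, 8 were called higher, 0 lower and 115 were not called. Over all genes, 3.34% were called in either direction, 2.13% higher and 1.21% lower. The lists were chosen with earlier results of these data known. Their counts, here and list by list below, are therefore descriptive and are not read against the shares of all genes. Of the 123, 30 were higher and 8 lower at an unadjusted p under 0.05, where 1830 and 1636 of all 16575 genes were. DESeq2 called 12 higher and 2 lower, beside 929 and 737 of all genes. For limma-voom these counts were 8 higher and 0 lower, beside 452 and 204 of all genes. The median log2 fold change over the 123 was 0.16, beside -0.01 for all genes.

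In the folate cycle, which takes the carbon that glycine cleavage and serine hydroxymethyltransferase release, 1 of 18 measured genes rose and 0 fell, with a median of 0.22. The gene was *mthfs* (ENSDARG00000104487), which returns 5-formyltetrahydrofolate to the cycle. It was at 7.41 ± 1.33 CPM in mutants (SD, n = 4) and 3.73 ± 0.955 CPM in controls (SD, n = 5), and the log2 fold change was 0.99 ± 0.23 (SE, edgeR adjusted p = 0.0468). It lost its call in 8 of 9 fits with a library left out.

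The next list was written around the use of glycine and serine, as for creatine, heme, glutathione, cysteine or lipids. It also held genes outside such use, *tdh*, *gcat* and *sardh* among them. Of its 29 measured genes, 1 rose and 0 fell, with a median of 0.11. *cth* (ENSDARG00000032206), which releases cysteine in the last step of the route from serine and homocysteine, was at 87.1, 118.2, 63.3 and 66.4 CPM in mutants 6 to 9, against 18.4, 18.7, 30.7, 16.8 and 22.9 CPM in controls 1 to 5. The lowest mutant held 2.06 times the level of the highest control. Its log2 fold change was 1.96 ± 0.23 (SE, edgeR adjusted p = 0.00311) and it was called under every setting run. A further identifier with the same symbol (ENSDARG00000074301) was at 8.67 ± 2.54 CPM in mutants and 13.2 ± 2.94 CPM in controls (SD, n = 4 and 5; edgeR adjusted p = 0.177), and the assignment of reads between them was not tested. In this list the likelihood ratio test and DESeq2 also called *sardh* higher, picked out after its values were seen. Its log2 fold change was 1.32 ± 0.37 (SE, edgeR adjusted p = 0.0798), with overlap between the genotypes.

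Of 26 measured genes for lipoylation and for the dehydrogenases that share *dldh* and their kinases, 1 rose and 0 fell, with a median of 0.13. It was *lias* (ENSDARG00000022845), the lipoyl synthase that makes the arm on which the H protein works. It was at 41.1 ± 1.88 CPM in mutants (SD, n = 4) and 29.1 ± 3.32 CPM in controls (SD, n = 5), without overlap (log2 fold change 0.50 ± 0.12 (SE), edgeR adjusted p = 0.0488). The call was lost in 8 of 9 fits with a library left out, and *lias* lies on the chromosome of *vegfc* in GRCz12tu. Linkage to the targeted gene was not tested.

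The same list held the following genes, picked out after their values were seen. *pdk2* (ENSDARG00000059054), a kinase that switches pyruvate dehydrogenase off, was at 1673, 1255, 623.3 and 1393 CPM in mutants 6 to 9, against 141.5, 35.2, 94.3, 503.7 and 9.18 CPM in controls 1 to 5. The genotypes did not overlap, and control 4 stood apart from the other controls. The log2 fold change was 2.98 ± 0.89 (SE, edgeR adjusted p = 0.0953), and it passed the threshold in the likelihood ratio test, DESeq2, limma-voom and the fit without control 4. A further identifier with this symbol (ENSDARG00000020876) was at 736.3 ± 84.3 CPM in mutants and 486.2 ± 266.4 CPM in controls (SD, n = 4 and 5), with overlap. Its log2 fold change was 0.60 ± 0.45 (SE, edgeR adjusted p = 0.484), and the assignment of reads between them was not tested. *isca1*, an iron-sulfur cluster assembly gene, was at 30.9 ± 3.78 CPM in mutants and 44.2 ± 7.55 CPM in controls (-0.51 ± 0.15 (SE), edgeR adjusted p = 0.0938, n = 4 and 5), without overlap, and only DESeq2 called it lower.

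The transport list, written for carriers of glycine, serine and their neighbours, had a median of 0.53. Of its 18 measured genes, 4 were called higher and 0 lower, where 2.13% and 1.21% of all genes were. Not all of the 4 carry glycine or serine. The *slc43a2* genes encode a carrier of large neutral amino acids such as leucine and phenylalanine. One (ENSDARG00000036848) was at 133.7 ± 11.04 CPM in mutants and 41.8 ± 21.0 CPM in controls (log2 fold change 1.68 ± 0.35 (SE), edgeR adjusted p = 0.0335, n = 4 and 5). The other (ENSDARG00000061120) was at 5.48 ± 3.004 CPM in mutants and 1.20 ± 0.598 CPM in controls (2.19 ± 0.48 (SE), edgeR adjusted p = 0.0377, n = 4 and 5).

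*slc38a4* (ENSDARG00000018149), which encodes a sodium-coupled carrier of small neutral amino acids, falls outside the rule for named genes and was added after its values were seen. It was at 223.0 ± 76.7 CPM in mutants and 79.2 ± 32.9 CPM in controls (1.49 ± 0.34 (SE), edgeR adjusted p = 0.0452, n = 4 and 5). *sfxn5* (ENSDARG00000103595), of the sideroflexin family of mitochondrial carriers, had 40, 4, 39 and 62 counts in mutants 6 to 9 and 0, 0, 0, 0 and 2 counts in controls 1 to 5 (edgeR adjusted p = 0.0180). It shares its symbol with 1 other identifier, no fold is given because 4 controls held no count, and limma-voom gave an adjusted p of 0.154. With a library left out, the *slc43a2* genes lost their calls in 7 and 8 of 9 fits and *slc38a4* in 8 of 9, while *sfxn5* kept its call in all 9. However, *sfxn5* met the table's smallest row mean of 10 counts only through the mutant libraries. It dropped out of the fits with a mean of 50 counts or 1 CPM in 4 libraries. The robust fit also lost the call of *slc38a4*.

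The amino acid response list was written around the transcription factor Atf4, which in mammals also drives serine synthesis genes. Besides targets of Atf4 it holds *atf4a* and *atf4b* themselves and the kinase genes *eif2ak3* and *eif2ak4*. Here 1 of 32 measured genes rose and 0 fell, with a median of 0.08. It was *nupr1b* (ENSDARG00000094557), which encodes a small stress-induced nuclear protein, at 12.6 ± 5.84 CPM in mutants and 4.67 ± 1.18 CPM in controls (1.44 ± 0.31 (SE), edgeR adjusted p = 0.0362, n = 4 and 5). It lost its call in 7 of 9 fits with a library left out and under limma-voom. Without overlap, 6 of the 32 were higher and 2 lower in every mutant, where 6.07% and 4.46% of all genes were. The likelihood ratio test and DESeq2 each called 3 higher and 1 lower. The 1 lower was *iars1*, at 24.7 CPM in mutants and 39.4 CPM in controls (means, n = 4 and 5). For *iars1* the log2 fold change was -0.67 ± 0.19 (SE, edgeR adjusted p = 0.0882). The 2 genes lower in every mutant were *iars1* and *cars1* (-0.66 ± 0.22 (SE)). Of the 32 log2 fold changes, 17 were positive and 15 negative, between -3.14 (*slc7a11*) and 1.44 (*nupr1b*). That of *slc7a11* had an SE of 1.28 and rested on means of 0.0868 CPM in mutants and 0.802 CPM in controls, with overlap. Like *iars1* and *cars1*, *ddit3* was picked out after its values were seen. It was among the 3 called higher, at 66.2 ± 15.9 CPM in mutants and 29.1 ± 11.6 CPM in controls (SD). Its log2 fold change was 1.19 ± 0.31 (SE, edgeR adjusted p = 0.0679, n = 4 and 5), without overlap. limma-voom and the fit without control 5 also called it.

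**Figure D5:**
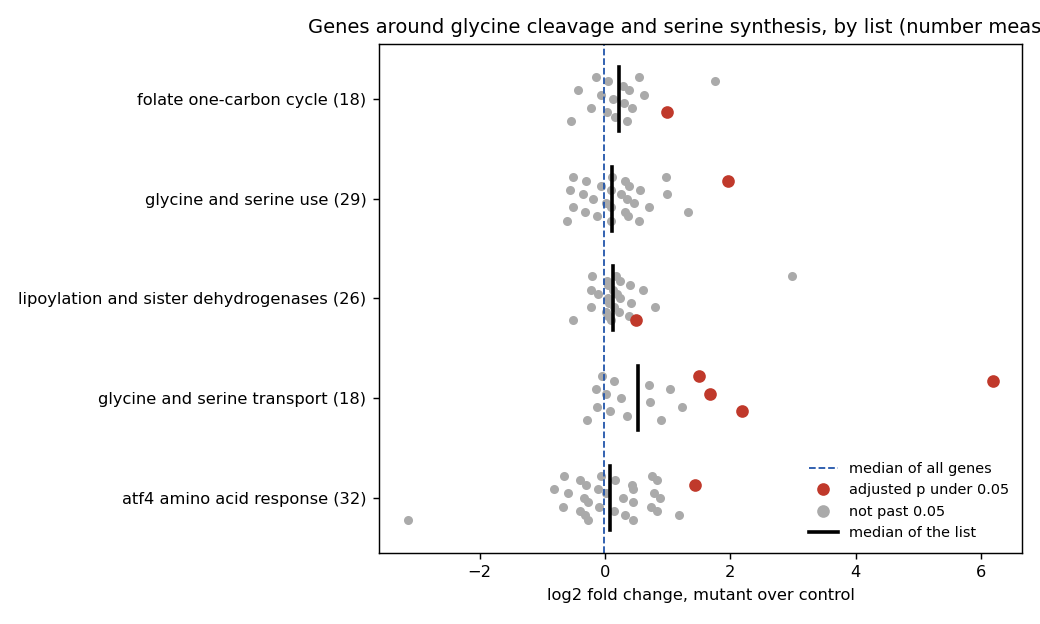
Log2 fold change, mutant over control, of the 123 genes in 5 lists around glycine cleavage and serine synthesis, with called genes in red, a black bar at each list's median and a dashed line at the median of all genes (-0.01). The transport list has 4 called genes of 18, where 2.13% of all genes were called higher, and the highest median (0.53). Its point farthest to the right is *sfxn5*, with 0 to 2 counts per control library.

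Markers of the cells that a ventricle can hold were summed in each library. Cardiomyocyte markers summed to 74161 to 83692 CPM in mutants and 93641 to 106331 CPM in controls, with every mutant lower, while 0 of the 16 measured were called. *myl7*, *cmlc1* and *actc1a* were the most abundant. Each row of the table averaged at least 10 counts, so markers below that level had no row and entered no sum. Names without a match in the name table entered no sum either, whatever their level. Among the names left out were *vmhc*, *myh7l*, *ttn.1*, *ttn.2* and *pln* of the cardiomyocyte list and *hbba1* and *hbba2* of the erythrocyte list. A marker absent from a sum was therefore not shown to be low. Proliferation markers summed to 71.1 to 164.6 CPM in mutants and 40.3 to 75.2 CPM in controls, with 2 of 4 mutants above every control. Log2 fold changes were positive for all 21 measured identifiers (median 1.34), where those of 8075 of all 16575 genes were. Of the 21, 1 was called (*mcm5*, higher), where 2.13% of all genes were called higher. The part of these differences in the levels of *gldc*, *shmt1* and *shmt2* was not tested.

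Markers of organs in which glycine cleavage is best known were summed in the same way. Liver markers summed to 195.1 to 590.6 CPM in mutants and 174.4 to 376.4 CPM in controls (13 identifiers for 30 names, 0 called). Of that sum 79.4% was *rbp4*. Log2 fold changes of the 13 were positive for 5 and negative for 8, with a median of -0.42. They ran between -2.64 ± 0.99 (SE, *hpxb*) and 1.69 ± 0.86 (SE, *c3a.1*), both from low levels with overlap. Mean *hpxb* was 0.321 CPM in mutants and 2.02 CPM in controls, and mean *c3a.1* 3.32 and 1.03 CPM. Kidney tubule and glia markers summed to 300.3, 215.9, 327.3 and 405.9 CPM in mutants 6 to 9 and to 53.6 to 273.5 CPM in controls (8 identifiers for 18 names, 0 called). In this sum 3 of 4 mutants lay above every control, and *glul* and *slc20a1* carried most of it. Of the 8 log2 fold changes, 5 were positive, those of *glul*, *slc20a1* and *gfap*. The other 3, of *lrp2*, *cubn* and *mbpa*, were negative. Leukocyte sums were 380.9 to 1139 CPM in mutants and 339.7 to 1422 CPM in controls (19 identifiers, 0 called). Erythrocyte sums were 1036 to 3517 CPM in mutants and 1084 to 3042 CPM in controls (12 identifiers, 0 called). Epicardium and fibroblast sums were 762.7 to 975.7 CPM in mutants and 674.8 to 1266 CPM in controls (17 identifiers, with *tbx18* called lower). The genotypes overlapped in each of these 5 sums, and their part in the level of *gldc* was not tested.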

How the data were processed

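The authors trimmed paired reads with Skewer, aligned them to GRCz11 with STAR 2.5.2a and counted reads on the strand of Ensembl genes with featureCounts 1.5.0 at a mapping quality of at least 20. Such a limit removes reads of near-identical gene copies. The deposited values are raw counts per gene, with no normalization, and the smallest row mean in the table was 10 counts. Whether a pair counted once is not given in the sources used here. Columns not used numbered 0.

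Libraries were grouped by their genotype labels. All 16575 genes were fitted together in edgeR 4.0.16 under R 4.3.3 (TMM scaling, legacy quasi-likelihood fit, two-sided F test, Benjamini-Hochberg adjustment over all genes, threshold 0.05, no covariate, no further filter). Since nothing states that libraries came from separate fish, p-values weigh the genotype difference only against the spread between these libraries. SEs of log2 fold changes are their size divided by the root of the F statistic, and counting error is the Poisson SD of the counts.

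Symbols came from a name table that covered 15812 identifiers (95.4%). RefSeq's GRCz12tu table served for names and neighbours only.

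Members and lists were chosen with earlier results of these data known. Named genes were all 10 members, *vegfc*, *vegfd*, up to 3 called genes per list and direction by smallest p, and the 5 genes most like *gldc* by each measure. Alternatives were RLE or library size scaling, the likelihood ratio test, DESeq2 1.42.0, limma-voom (limma 3.58.1), a robust fit, a mean of 50 counts, 1 CPM in 4 libraries, a threshold of 0.01, a pseudocount of 0.25 and each library left out. The procedure was tested on simulated counts.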

Additional observations from a re-analysis of the deposited data

Results flagged for a closer look

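In 60 groups of 4 or 5 libraries the highest or lowest library was set against Dixon's 95% critical value, and 6 groups held a library that stood apart, where chance gives about 3. Control 4 was the highest control for *shmt1*, at 5.35 CPM, and for *pdk2* (ENSDARG00000059054), at 503.7 CPM. Control 5 was highest for *sfxn5* (ENSDARG00000103595), at 0.0592 CPM from 2 counts. Since the other controls held 0 counts, any count in control 5 would have been flagged, and this group is among the 6. Mutant 9 was the highest mutant for the *slc43a2* gene ENSDARG00000061120, at 9.95 CPM. Control 3 had the highest summed leukocyte markers of the controls, at 1422 CPM. Control 2 had the lowest total of the controls, at 23302636 counts. For *gldc* in mutants, the gap of mutant 9 over the range was 0.825, just under the critical value.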

How the results depend on the processing

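No paired analysis was possible because the genotypes share no replicate number. *gldc* kept its direction and its call under every setting, the 0.01 threshold included. The likelihood ratio test called 817 genes higher and 540 lower, with 2 of the 9 genes higher and 1 pathway gene lower, and DESeq2 called 929 higher and 737 lower, with 2 of the 9 higher and 2 pathway genes lower. At 0.01, 68 genes were higher and 19 lower. With each library left out, 136 to 322 genes were higher and 60 to 170 lower, 1 to 2 of the 9 higher and 0 to 0 lower, and 2 to 6 pathway genes higher and 0 to 1 lower. The 2 were *cth* and *sfxn5*, without mutant 6, 7 or 9 or control 3, and the 1 lower came without control 5. The log2 fold change of *psph* ran between -0.11 and 0.020 with each library left out, and its sign turned without control replicate 1. The cause of these changes was not tested, except that a library left out means fewer samples. Depth limits *gcshb*, with 6 to 26 counts per library.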
